A study of Mus musculus with 3 samples.

Results

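The set described here is 509 of 161449 autosomal probes (0.315%) of a mouse genome array whose signal differed in the same direction in both DNAs on the array. For each probe the log2 signal was centred on the median of all autosomal probes of its array and channel, which gives the centred log2 signal used throughout. A probe was taken when the mean of lines 2 and 3 minus line 1 was 0.75 or more in liver DNA and in line DNA, or -0.75 or less in both. The members were 277 probes that were higher on the arrays of lines 2 and 3 (0.172% of autosomal probes) and 232 that were lower there (0.144%). These shares are fixed by the rule, and no test was made on them.

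The arrays compare 3 neurosphere lines, free-floating cultures of tumour cells, with liver DNA by comparative genomic hybridisation, in which both DNAs bind to the same probes in different colours. Per the labels, the lines came from mouse tumours resistant to a block of CSF1R, a receptor needed by macrophages and microglia, and were cultured for no more than 3 passages. Line DNA carried Cy5 and liver DNA Cy3 on every array, and the 3 lines form 1 group with no untreated or sensitive line beside them. Line 1 and its liver carry 1 animal number, while lines 2 and 3 share another number and 1 liver label, so the rule sets the array of 1 animal against the 2 arrays of the other. The labels do not give strain, genotype of the tumour model, sex or age. The 3 arrays lay on 1 slide. The animal of line 1 had only 1 array, so that animal and that array cannot be told apart.

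As background, laboratory mouse strains differ by single bases, small insertions and deletions, and gains or losses of whole gene copies. Such inherited differences are present in every tissue of an animal, so they lower or raise a probe in liver and in tumour DNA alike and leave the ratio between them near the middle. In mice of mixed ancestry they come in long blocks of neighbouring sequence, and copy number differences are known to be frequent in tandem families such as the olfactory, vomeronasal and natural killer receptor genes and the cytochromes P450. A probe can also read low where its sequence matches the animal's DNA less well, without any change in copy number.

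The label under which the set was chosen, a difference between animals, was not tested. Most members split by their place on the array. Of the 508 members with a single spot, 480 (94.5%) lay in rows 1 to 400 of the array's 1064 rows, an area that holds 37.4% of single-spot probes. Within it, columns 1 to 85 held 242 higher and 7 lower members, and columns 86 to 170 held 8 higher and 223 lower members. The other 28 members lay in rows past 400, where 26 were higher and 2 lower, and 21 of these 28 fell in 3 stretches of the genome on chromosomes 4, 7 and 9. The set is therefore described below as probes chosen by the rule, in 2 parts, with no cause assigned to either.

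The probe sequences below belong to the members that carry the genomic pattern and were chosen after their values were seen, apart from Cpne4 and Dock3. They are the array's designed sequences, 5′ to 3′, at mm9 positions per the file headers, which name no strand. No base is in capitals, because the site of any difference from the animals' DNA is not known.
Wdtc1, chr4:132890292-132890351: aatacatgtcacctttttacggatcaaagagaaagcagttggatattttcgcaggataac
Pafah2, chr4:133980647-133980706: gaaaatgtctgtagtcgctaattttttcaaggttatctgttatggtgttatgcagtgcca
unnamed probe with several spots, chr4:136607219-136607278: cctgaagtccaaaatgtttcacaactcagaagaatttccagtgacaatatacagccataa
unnamed, chr7:133880530-133880589: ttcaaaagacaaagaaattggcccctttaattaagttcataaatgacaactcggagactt
Nmnat3, chr9:98220601-98220660: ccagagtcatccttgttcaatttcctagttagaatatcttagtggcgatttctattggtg
Tmem108, chr9:103405535-103405594: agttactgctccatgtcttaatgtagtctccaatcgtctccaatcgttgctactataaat
unnamed, chr9:104363112-104363171: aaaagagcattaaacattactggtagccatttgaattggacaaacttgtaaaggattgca
unnamed, chr9:104400591-104400650: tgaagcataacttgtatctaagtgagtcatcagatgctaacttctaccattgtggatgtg
Cpne4, chr9:104838394-104838453: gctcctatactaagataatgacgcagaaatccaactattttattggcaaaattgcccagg
Cpne4, chr9:104904025-104904084: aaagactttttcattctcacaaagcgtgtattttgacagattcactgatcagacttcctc
Dock3, chr9:106854803-106854862: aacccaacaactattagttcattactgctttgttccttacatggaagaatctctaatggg
Dock3, chr9:106975113-106975172: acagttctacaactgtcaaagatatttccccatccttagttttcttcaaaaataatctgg
In the stretches on chromosomes 4, 7 and 9 these probes read lower in the liver and in the line of the animal of line 1. The next group is the densest cluster of neighbouring members in the whole set, around a cytochrome P450 gene on chromosome 7, and is shown because of how close its members lie to each other.
Cyp2b13, chr7:26863707-26863761: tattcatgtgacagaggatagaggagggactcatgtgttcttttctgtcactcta
J03549, chr7:26885171-26885230: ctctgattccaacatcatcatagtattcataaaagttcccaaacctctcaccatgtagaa
J03549, chr7:26896215-26896274: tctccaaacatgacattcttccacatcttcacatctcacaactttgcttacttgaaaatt

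Members were dim probes for the most part. Among higher members the median centred log2 signal in liver DNA was -2.23 on the array of line 1, -0.997 on that of line 2 and -1.02 on that of line 3. In line DNA the same medians were -1.92, -0.75 and -0.85. Among lower members the liver medians were -0.89, -2.05 and -2.10, and the line medians were -0.79, -1.74 and -1.87. Lines 2 and 3 lay close to each other: the median absolute difference between them was 0.10 in liver and 0.12 in line DNA for higher members and 0.16 and 0.19 for lower members, beside 0.09 and 0.11 over all autosomal probes. The same threshold set on line 3 minus line 2 took 18 probes as higher (0.0111% of autosomal probes) and 88 as lower (0.0545%), and 12 of the 509 members were among these. In 386 members lines 2 and 3 each passed the threshold against line 1 by themselves. The member closest to the threshold was a probe of Capn9 at 1.15 in liver and 0.75 in line DNA, and the closest probe left out, in Xkr7, had 1.01 and 0.75, just under the limit.

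Signal on the array of line 1 was the lowest of the 3. The median raw signal was 162, 304 and 414 in the liver channel and 413, 549 and 708 in the line channel for lines 1, 2 and 3. In 134 members the low side was not well above background in either channel, 81 of them higher and 53 lower members, so their differences are known only as bounds. Probes with a mean centred log2 signal below -1 made up 66.3% of members in rows 1 to 400, 46.4% of members in rows past 400 and 16.6% of all autosomal probes. Probes shorter than the full 60 bases made up 95 of 481 members in rows 1 to 400 (19.8%; the member with several spots is counted there by one of its spots), 1 of 28 in the other rows and 4.38% of all autosomal probes. Median GC content was 36.7% in members and in all probes, and its SD was 3.15 percentage points in higher and 3.08 in lower members against 1.91 over all probes. Whether dimness or length plays a part in membership was not tested.

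**Figure D1:**
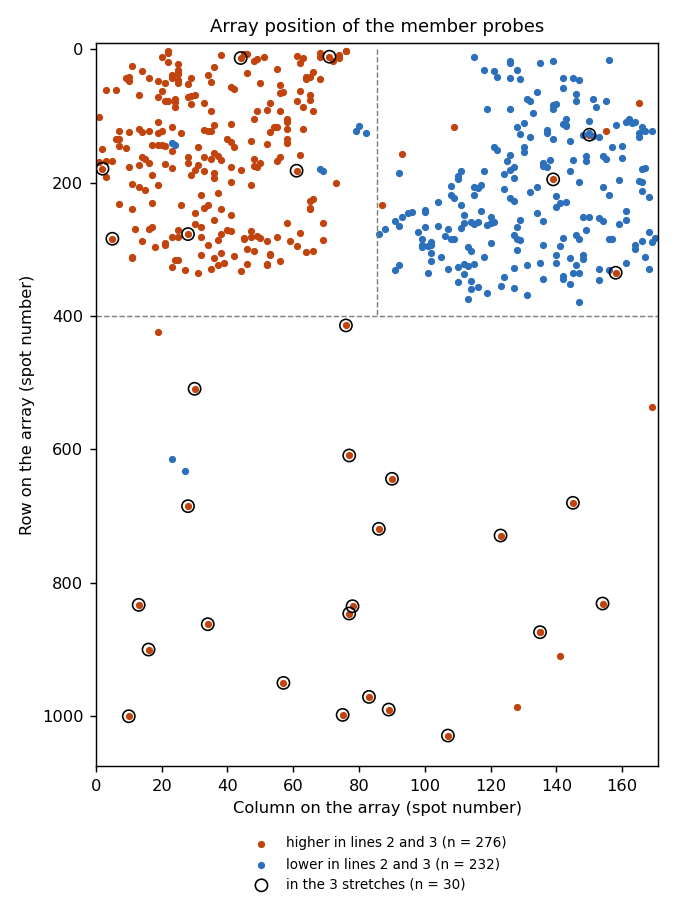
Each point is 1 of the 508 single-spot members at its place on the array, with the column on the horizontal axis and the row on the vertical axis, in spot numbers; red is higher and blue is lower in lines 2 and 3, and circles mark the 30 members in the 3 stretches. Rows 1 to 400 hold 480 members, with 242 of the 250 higher members there in columns 1 to 85 and 223 of the 230 lower members in columns 86 to 170.

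Members were dense in the first 300 rows, fewer in the next 100 and rare after that. Rows 1 to 100 held 83 higher and 30 lower members, rows 101 to 200 held 85 and 68, rows 201 to 300 held 57 and 85, and rows 301 to 400 held 25 and 47. No later band held more than 8 higher or 2 lower members, although each full band of 100 rows held about as many probes. Over all dim probes, members or not, the median of lines 2 and 3 minus line 1 was 0.25 in liver and 0.08 in line DNA in rows 1 to 400 and columns 1 to 85, and -0.08 and -0.10 in columns 86 to 170. It was 0.04 and -0.02 in rows past 400. Between lines 2 and 3 the same medians stayed between -0.0033 and 0.039 in all of these areas. The boundaries at row 400 and column 85 were chosen after seeing the data.

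Probes printed at several spots show the same sequence in the same DNA at different places. There were 949 such autosomal probes, and each spot was set against the rule by itself. In rows 1 to 400, 14 of 785 spots in columns 1 to 85 passed as higher and 2 as lower, whereas 0 of 726 spots in columns 86 to 170 passed as higher and 19 as lower. Of 2837 spots in rows past 400, 4 passed as higher and 0 as lower. For the 145 dim probes with spots both in columns 1 to 85 of the upper rows and in rows past 400, the upper spots gave a difference above that of the lower spots by a median of 0.13 in liver and 0.05 in line DNA, with 64 above and 24 below in both DNAs. For the 130 dim probes with spots in columns 86 to 170 and in rows past 400, the median was -0.12 in liver and -0.04 in line DNA, with 31 above and 59 below in both. Over all such probes, dim or not, the medians were smaller. They were 0.07 in liver and 0.02 in line DNA for 541 probes with spots in columns 1 to 85, with 231 above and 118 below in both. For 470 probes with spots in columns 86 to 170 they were -0.03 and -0.03, with 111 above and 184 below. The columns were compared separately, so these counts do not show that any 1 probe shifted both ways. The cause of the shifts was not tested.

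Averaged over its spots, 1 of these 949 probes was a member, and it is the probe whose 4 spots passed in rows past 400. It lies at chr4:136607219-136607278, beside no named gene, and was printed at 5 spots: in row 219, where the spot carries an outlier mark on the array of line 2, and in rows 410, 425, 556 and 639 with no outlier mark. In liver DNA the 4 spots without a mark read between -0.94 and -0.83 on the array of line 1, between 0.14 and 0.33 on that of line 2 and between 0.29 and 0.41 on that of line 3. In line DNA they read between -1.17 and -0.95, between 0.14 and 0.42, and between 0.37 and 0.54. The spot in row 219 read -1.11, 0.03 and 0.23 in liver and -1.30, 0.11 and 0.27 in line DNA, with the value of line 2 left out of the probe's mean. The array of line 1 read low at all 5 places, as the rule fixes for the probe's mean, and spots of 1 array are not replicates of the animal. The probe lies just past the end of the chromosome 4 stretch described next.

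Members in rows past 400 were clustered in the genome. With neighbouring members at most 5 Mb apart and at least 3 per stretch, a definition chosen after seeing the data, 21 of the 28 fell in 3 stretches, all of them higher in lines 2 and 3. The stretches hold 826 of the 100419 single-spot probes in those rows (0.823%), and outside them 7 of 99593 probes were members (0.00703%). The stretches were drawn around these members, and the counts that follow come from the contrast that the rule used, so they describe the stretches and support nothing. In rows 1 to 400, which were not used to draw them, 9 of 499 probes inside the stretches were higher members (1.80%) and 0 were lower, against 241 of 59582 outside (0.404%) that were higher and 230 that were lower. These 9 were 8 of 268 probes on chromosome 9, 1 of 122 on chromosome 4 and 0 of 109 on chromosome 7. Among probes of rows past 400 that were no members, 13 of 805 inside the stretches were higher by at least 0.5 in both DNAs (1.61%) and 1 was lower, against 34 higher (0.0341%) and 28 lower of 99586 outside. Those 13 were 10 of 411 probes on chromosome 9, 3 of 207 on chromosome 4 and 0 of 187 on chromosome 7.

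Over the 30 members in the stretches, lines 2 and 3 were above line 1 by 0.77 to 5.47 in liver DNA, with a median of 1.22, and by 0.78 to 5.81 in line DNA, with a median of 1.08. Both lines 2 and 3 lay above line 1 in both DNAs in 30 of 30, as the rule nearly requires. Line 3 minus line 2 had a median of -0.02 in liver and -0.03 in line DNA. All 3 arrays read 19 of the 30 well above background in both channels. In 7 the array of line 1 did not read well above background in either channel. The log2 ratio of line over liver, which the rule did not use, had medians of 0.04, 0.06 and 0.06 in lines 1, 2 and 3. Single members spread widely around these medians, from -0.81 to 0.85 in line 1, from -0.36 to 0.46 in line 2 and from -0.42 to 0.70 in line 3.

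The stretches did not move as blocks. Between the members, most probes read alike on the 3 arrays: over the 411 probes of the chromosome 9 stretch in rows past 400 that were no members, the median of lines 2 and 3 minus line 1 was 0.01 in liver and 0.02 in line DNA. Their SD was 0.30 in liver and 0.23 in line DNA, against 0.25 and 0.14 for probes outside the stretches in the same rows. The median ratio of line over liver over all probes of each stretch stayed between -0.03 and 0.11 in all 3 lines.

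**Figure D2:**
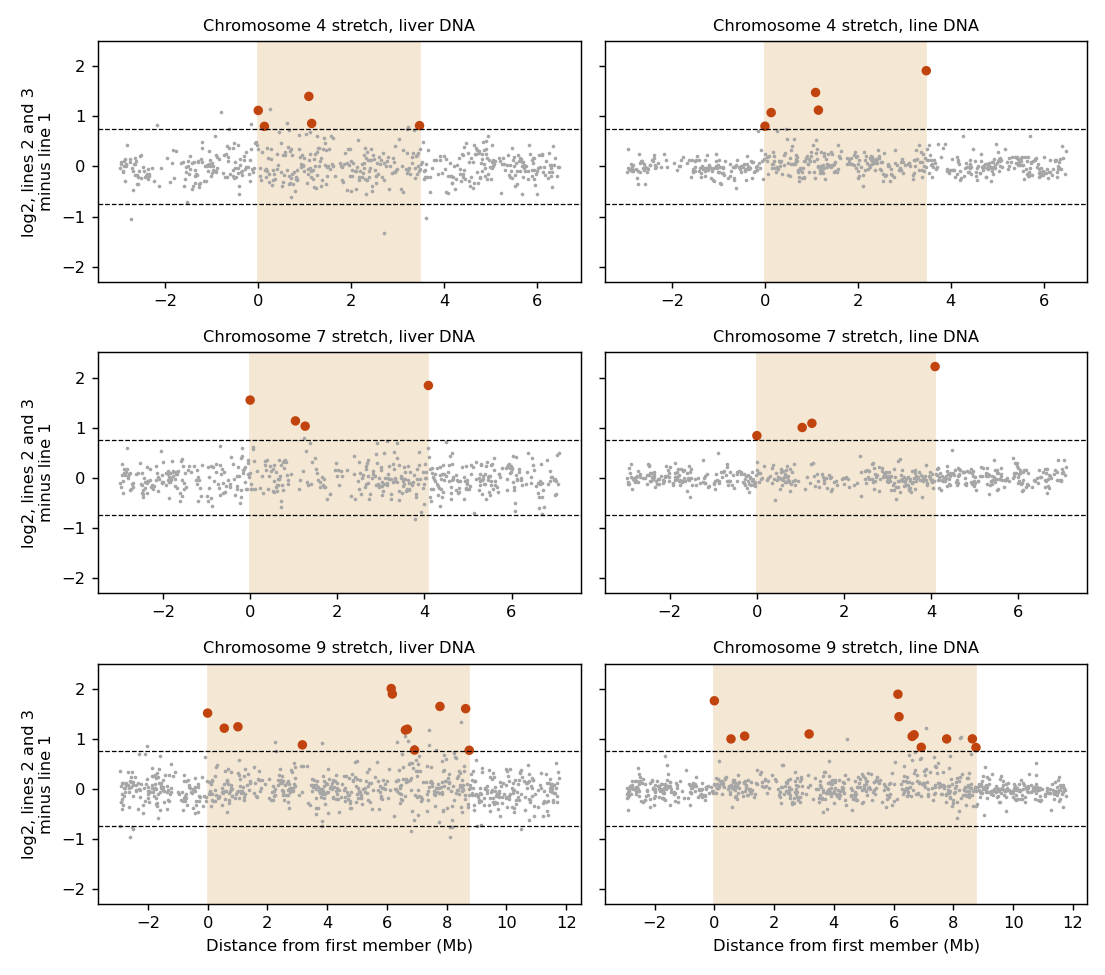
Each panel plots 1 stretch in 1 DNA, for probes in rows past 400, with the distance from the first member in Mb on the horizontal axis and the centred log2 signal of lines 2 and 3 minus that of line 1 on the vertical axis; red points are members, grey points other probes, the shaded span is the stretch and dashed lines mark 0.75 and -0.75. The 5, 4 and 12 members on chromosomes 4, 7 and 9 lie at 0.75 or more in both DNAs, while most other probes lie around 0; some of those exceed 0.75 in 1 DNA and lie above members there, and no lower member lies in any stretch.

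The chromosome 9 stretch is the longest, chr9:98220601-106975172 (8.75 Mb), and held 20 of its 691 single-spot probes as higher members, 12 of 423 in rows past 400 and 8 of 268 above. The gene with the most members of the whole set lies here: Cpne4, which codes for a copine, a calcium-dependent phospholipid-binding protein, had 4 higher members among 44 probes. Its probe at chr9:104838394-104838453 read -1.42, -0.29 and -0.22 in the livers of lines 1, 2 and 3 and -1.42, -0.48 and -0.28 in the lines. The probe at chr9:104904025-104904084 read -2.76, -1.57 and -1.57 in liver and -2.45, -1.35 and -1.39 in line DNA. Line 1 was the low array for both. The remaining 2 Cpne4 members sat in rows 11 and 182, and the median over all 44 probes was 0.14 in liver and 0.05 in line DNA, so that most of the gene read nearly alike.

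Dock3, a guanine nucleotide exchange factor for the small GTPase Rac in neurons, had 3 higher members among 35 probes and is the other gene with at least 3 members in 1 direction. At chr9:106854803-106854862 its probe read -1.50, 0.15 and 0.06 in liver DNA and -1.20, -0.15 and -0.27 in line DNA. At chr9:106975113-106975172 the values were -0.96, -0.17 and -0.22 in liver and -1.03, -0.36 and -0.05 in line DNA. The third member, at chr9:106994941-106995000, lies in row 122 and just past the end of the stretch.

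The member with the widest measured gap in both DNAs was a probe of Tmem108, which codes for a transmembrane protein, in row 277. Liver DNA read -4.51 on the array of line 1 and 0.97 and 0.94 on those of lines 2 and 3, and line DNA read -4.88, 0.92 and 0.95. The array of line 1 did not read it well above background in either channel, so the difference is a bound: set against the lowest signal well above background on that array, lines 2 and 3 were at least 9.27-fold higher in liver and at least 12.2-fold higher in line DNA. Its rank among members is not set by such bounds, since an unnamed lower member at chr4:17429757-17429816 had one of at least 9.93-fold in liver. The Tmem108 probe was the only member among the gene's 26 probes, which had a median difference of 0.03 in liver and 0.04 in line DNA.

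Other genes of this stretch had 1 or 2 members each. Nmnat3, which makes NAD in mitochondria, had 2 of 11 probes, and its probe at chr9:98220601-98220660 read -1.82, -0.30 and -0.33 in liver and -2.14, -0.49 and -0.28 in line DNA. Nek11, a kinase of the DNA damage checkpoint, had 2 of 24. Esyt3, an extended synaptotagmin, had a probe at -2.76, -1.50 and -1.55 in liver and -2.52, -1.42 and -1.51 in line DNA. Of the collagen VI genes that lie side by side here, Col6a4 had 1 member of 10 probes, Col6a6 1 of 12 and Col6a5 0 of 7. The Col6a6 gene as a whole had a median difference of 0.27 in liver and 0.35 in line DNA, and Nek11 one of 0.24 and 0.21, beside -0.0083 and -0.0014 over all autosomal probes. Those medians come from the contrast that the rule used and were not tested.

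The chromosome 4 stretch, chr4:132890292-136364162 (3.47 Mb), held 6 higher members among 334 probes, 5 of them in rows past 400. Wdtc1, a WD and tetratricopeptide repeat protein, had a bright probe that read 0.83, 1.89 and 2.00 in liver and 0.86, 1.70 and 1.63 in line DNA. Pafah2, a platelet-activating factor acetylhydrolase, read -2.66, -1.13 and -1.38 in liver and -2.40, -0.79 and -1.05 in line DNA. Ephb2, an ephrin receptor tyrosine kinase, read -2.49, -1.81 and -1.53 in liver and -3.31, -1.36 and -1.42 in line DNA, and the array of line 1 did not read it well above background in either channel. The remaining 3 stood beside no gene name.

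The chromosome 7 stretch, chr7:129789779-133880589 (4.09 Mb), held 4 higher members among 300 probes, all in rows past 400 and all unnamed. The clearest of them, at chr7:133880530-133880589, read -3.19, -1.33 and -1.36 in liver and -3.39, -1.22 and -1.12 in line DNA. Line 1 was not well above background there, and lines 2 and 3 were at least 1.88-fold higher in liver and at least 2.83-fold higher in line DNA.

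**Figure D3:**
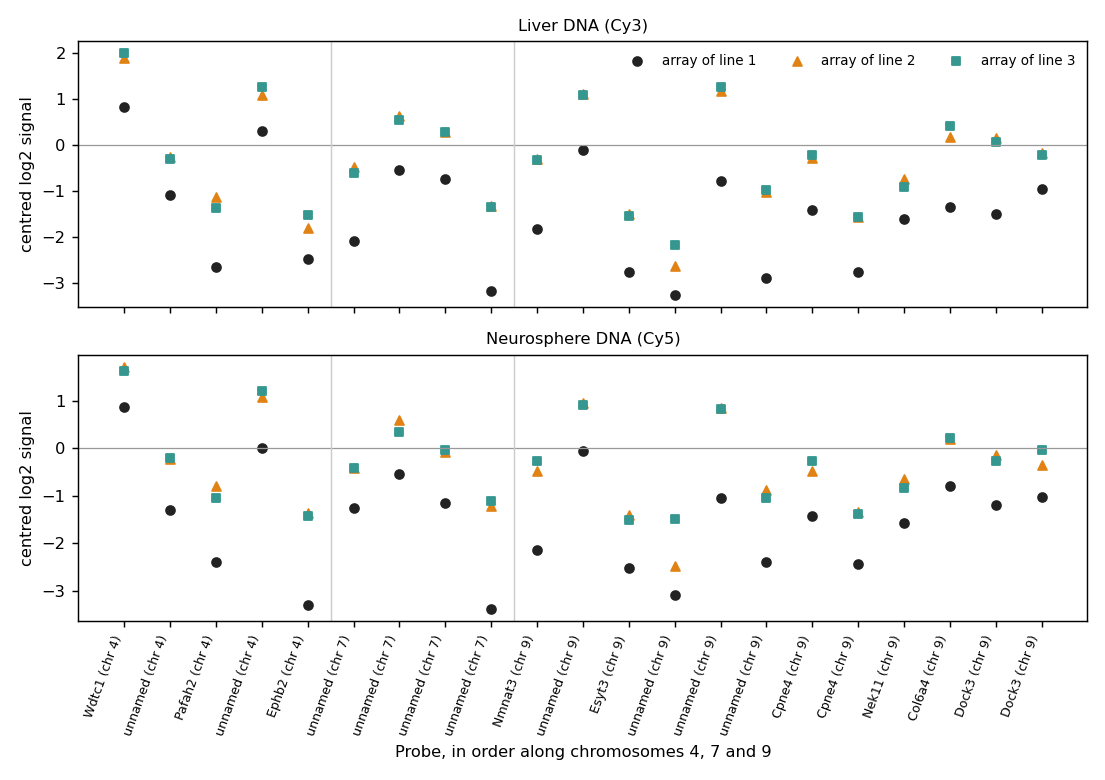
The centred log2 signal (vertical axis) is plotted for the 21 stretch members in rows past 400 (horizontal axis, in order along chromosomes 4, 7 and 9), in liver DNA above and in neurosphere DNA below, with 1 symbol per array. In every one of these 21 probes the circle of line 1 lies below both symbols of lines 2 and 3 in both panels, and lines 2 and 3 nearly coincide in most.

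Outside the stretches, 7 members lay in rows past 400. The clearest was a probe of Epha6, another ephrin receptor, at chr16:60062748-60062807, which read -0.37, 1.08 and 1.12 in liver and -0.03, 0.86 and 1.01 in line DNA. An unnamed probe at chr13:93793925-93793984 read -1.88, -0.59 and -0.49 in liver and -2.35, -0.42 and -0.48 in line DNA. The 2 lower members of these rows, at chr7:10995604-10995663 and chr13:64154062-64154121, were dim, at -1.89, -2.84 and -3.04 and at -3.77, -4.89 and -5.17 in liver. A higher member beside BC040767 on chromosome 1 read -4.47, -4.56 and -2.67 in liver and -4.50, -3.78 and -2.77 in line DNA. It was well above background on 1 array in liver and on 0 in line DNA, and lines 2 and 3 did not read alike.

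Members next to each other along the genome were few. The median spacing of autosomal probes was 10844 base pairs, and 3 runs of neighbouring members in 1 direction held 6 of the 509 members (1.18%). One was the pair of unnamed probes at chr9:104363112-104400650, both in rows past 400. The first of the pair read -0.78, 1.18 and 1.26 in liver and -1.05, 0.85 and 0.83 in line DNA, and the second read -2.90, -1.03 and -0.98 in liver and -2.40, -0.89 and -1.04 in line DNA. The run of lower members at chr4:143851505-143909951 lay in rows 244 and 284 of the array, and that at chr7:26885171-26896274 in rows 313 and 323.

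With up to 100 kb between neighbours and at least 3 members, there were 3 places with 10 members in all. The densest was chr7:26863707-26896274, where 3 of 4 probes were members, beside Cyp2b13, a cytochrome P450 of the family that oxidises drugs and steroids in liver, and beside the transcript J03549. The Cyp2b13 probe read -1.75, -0.35 and -0.62 in liver and -2.25, -0.25 and -0.52 in line DNA. The J03549 probe at 26885171 read -4.49, -1.49 and -1.61 in liver and -4.90, -1.31 and -1.62 in line DNA, and that at 26896215 read -4.51, -0.79 and -0.75 in liver and -3.99, -0.74 and -0.91 in line DNA. At the latter, line 1 was not well above background and lines 2 and 3 were at least 2.80-fold higher in liver and at least 3.60-fold higher in line DNA. All 3 members lay in rows 1 to 400, and the remaining probe, a second one of Cyp2b13 in row 843, read -2.12, -1.89 and -1.95 in liver and -1.85, -1.63 and -2.01 in line DNA, which is nearly alike on the 3 arrays. Cyp2b9, a neighbouring gene, had 0 members among 3 probes, and J03549 had 2 among 15.

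The place at chr9:104363112-104590140 held 4 members among 17 probes around the start of the Cpne4 probes, 2 of them in rows past 400. The place of lower members, chr1:46673859-46826306, held 3 among 9 probes beside BC040767 and ENSMUST00000106514, all 3 in rows 1 to 400. Its first member read -0.91, -3.11 and -3.68 in liver and -0.71, -3.23 and -3.52 in line DNA. Probes between the members lay in rows 441 and higher, and those at 46688021 and 46765270 read 0.85, 0.78 and 0.77 and 1.71, 1.72 and 1.66 in liver, alike on the 3 arrays, while that at 46706418 read -0.04, -0.89 and -0.81 in liver and -0.56, -0.72 and -0.72 in line DNA.

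Gene families were listed by symbol, and the list also holds protocadherins, zinc finger proteins and single genes known to differ between strains. The 27 families held 2565 probes, with 1018 of them in zinc finger proteins. Of the 2565 probes, 14 were members (0.546%) beside 0.315% of all autosomal probes, and 10 families had at least 1. All 14 lay in rows 1 to 400 of the array. The 10 higher ones all lay in columns 1 to 85, and 3 of the 4 lower ones in columns 86 to 170, so that they follow the same split as the other members of those rows. Classed by name only, predicted genes had 3 members among 740 probes and RIKEN clones 13 among 4053.

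Among receptor families, olfactory receptors had 1 member of 78 probes (Olfr1033) and vomeronasal receptors, which detect pheromones, 1 of 207. The latter, beside the pseudogene Vmn2r-ps11, read -0.79, 1.18 and 1.02 in liver and -0.88, 1.38 and 1.14 in line DNA. Natural killer lectin receptors had 2 of 52: Clec2g, a C-type lectin, read -1.77, 0.33 and 0.30 in liver and -1.46, 0.51 and 0.44 in line DNA, and Klra2, an inhibitory receptor of the Ly49 type, differed by 0.78 in both. Pira1, a paired immunoglobulin-like receptor, was the member among 3 probes of its family and read 1.53, 0.46 and 0.37 in liver and 1.31, 0.40 and 0.12 in line DNA. In Vmn2r-ps11 and Clec2g line 1 was low, and in Pira1 it was high.

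Among enzymes and their inhibitors, cytochromes P450 had 2 members of 215 probes, Cyp2b13 above and Cyp4a10, which read -1.06, -1.92 and -2.09 in liver and -0.79, -1.96 and -2.44 in line DNA. Glucuronosyl- and sulphotransferases had 1 of 79 (Ugt1a10). Serpins had 1 of 87: Serpina1e, of the alpha-1-antitrypsin type, read -1.36, 0.44 and 0.34 in liver and -1.21, 0.72 and 0.52 in line DNA. Skint genes, which help select gamma delta T cells in skin, had 1 higher (Skint2) and 1 lower (Skint10) of 115. Zinc finger proteins had 1 higher (Zfp780b) and 1 lower (Zfp953) of 1018, and the Nlrp and Naip genes, sensors of the inflammasome, 1 of 80 (Nlrp1b), which was not well above background on any array. The other 17 families had 0 members by symbol, among them the major histocompatibility genes with 11 probes, protocadherins with 322 and a list of single genes known to differ between strains with 103. Members with accession or transcript names can be missed by such a list. J03549 beside Cyp2b13 was not counted as a cytochrome P450. ENSMUST00000160290, which matched the promoter of Clec2i, was not counted as a lectin receptor. A count of 0 therefore does not show that a family's region held no member.

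Every autosome held members, from 0.236% of the probes of chromosome 10 to 0.483% of chromosome 9, which had 34 higher and 8 lower. A gene name stood beside 337 members, with 314 different names, of which 296 had 1 member. Members whose low side was lines 2 and 3 included single probes of Erbb4, the neuregulin receptor, and of Man2a1, a Golgi mannosidase, both in rows 1 to 400. Erbb4 read -1.92, -4.58 and -4.81 in liver and -1.81, -4.14 and -4.54 in line DNA, and line 1 was at least 1.77-fold higher in liver and at least 1.95-fold higher in line DNA. Man2a1 read -0.93, -3.44 and -4.18 in liver and -1.44, -4.21 and -4.77 in line DNA. Neither was well above background on the arrays of lines 2 and 3, and both stood alone among neighbours that were no members.

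The dyes were not swapped, so a change in the tumour cells and a difference between dyes cannot be told apart in the ratio of line over liver. This ratio is a contrast that the rule did not use, although it comes from the same signals. Its median in lines 1, 2 and 3 was 0.28, 0.18 and 0.15 (log2) for higher members and 0.11, 0.22 and 0.15 for lower members. The sign of these medians depends on the correction: with normexp it was below 0 in line 1 for higher members (-0.364) and in all 3 lines for lower members (-0.168, -0.12 and -0.0497), and in the authors' value table it was below 0 for lower members in lines 1 and 3 (-0.0538 and -0.0089). By limma's moderated test of the 3 ratios against 0, 154 of the 509 members passed an adjusted p of 0.05 above 0 (30.3%) and 17 below 0 (3.34%), where 16.7% of all autosomal probes passed above and 17.5% below. Dim probes that were no members passed above 0 in 36.9% and below 0 in 2.22% of 26521. Of the 28 members in rows past 400, 3 passed above and 2 below 0, and of the 4 Cpne4 members 2 passed above and 1 below. Tmem108, Wdtc1, Ephb2, both Nmnat3 probes and all 3 Dock3 probes did not pass, with adjusted p of 0.33 for Tmem108 (mean -0.12 ± 0.09, SE, n = 3 lines, limma with Benjamini-Hochberg adjustment). By the same test Pafah2 passed above 0 (mean 0.32, adjusted p 0.017). The unnamed stretch members that start at chr9:104363112 (mean -0.33, adjusted p 0.017) and chr7:131053257 (mean -0.35, adjusted p 0.014) passed below 0. The excess above 0 was lost with other values: with normexp background correction 30 members passed above 0 (5.89%) beside 14.8% of all probes, and with the authors' tabulated values 42 of 392 did, a share below the 11.3% of all probes. Without line 2 the count above 0 was 98, or 19.2% beside 8.89%. With lines 2 and 3, which share an animal number, averaged into 1 value, 121 members passed above 0 (23.8%) beside 11.2% of all probes, and 10 passed below 0 (1.97%).

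The size of the set depends on how the signal is corrected. With normexp correction of the raw signals the rule took 114 higher and 304 lower probes, of which 190 were among the 509, and with only probes well above background in both channels on all arrays it took 126 and 141. The split between columns was present there too: normexp gave 93 higher and 2 lower in columns 1 to 85 and 4 and 301 in columns 86 to 170, and the background filter gave 104 and 5 against 4 and 136. Rows past 400 gave 16 higher and 1 lower with normexp and 17 and 0 with the filter. Of these, 10 with normexp and 17 with the filter were among the 28 members of those rows in the main setting.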

How the data were processed

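Genomic DNA of 3 mouse neurosphere lines and liver was measured on 3 Agilent 2-colour arrays. The deposited intensity of each spot is, per the file headers, the processed signal of Feature Extraction 10.7.3.1 (background-subtracted, detrended, dye-normalised), with probes placed on mm9. The authors' value table holds log10 ratios, which correlated with the scanner's log10 ratio at 0.867, 0.844 and 0.884; no source used here says how it was centred. Gene names come from the array's design, and 231 of the 314 names of members matched a RefSeq symbol and 19 a synonym (GRCm38.p6, names only). Annotation of exons, introns and UTRs on mm9 was not used here.

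Control spots (6575 of 180880) and spots with an outlier mark (165, 179 and 160) were left out, spots of 1 probe were averaged, and log2 of the deposited processed intensities was centred on each array's autosomal median per channel. A probe not well above background has only a bound. Runs, places (100 kb) and families were counted. The log2 ratio of line over liver was tested against 0, on both sides, by limma 3.58.1 in R 4.3.3 (lmFit, then eBayes, with Benjamini-Hochberg adjustment over 161449 probes), with lines 2 and 3 as separate samples. The p-values reflect the spread of these lines alone. On simulated ratios the test called 100 of 100 probes shifted by 1, 95 of 100 shifted by 0.5 and 9 of 161249 unshifted. The simulated ratios were independent between lines, with the same spread for every probe and no difference between dyes. They therefore cannot show how often the test errs on these data. Other steps used Python 3.11.15, numpy 2.4.6 and pandas 2.3.3. Alternatives were other thresholds, centrings, background corrections, filters, gaps and left-out lines. Precision is limited by the 3 arrays.

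The members, lists and tests were chosen with earlier results of these data known. Genes were named when they had at least 3 members in 1 direction (up to 15 per direction), lay in a place, or belonged to a listed family; others that are named were chosen after their values were seen.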

Additional observations from a re-analysis of the deposited data

How the results depend on the processing

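Of 114 values recomputed under another setting, 64 stayed in their range, 44 moved and 6 reversed; the cause was not tested. A threshold of 0.5 gave 778 higher and 713 lower members, 17 runs, 13 places and 35 family members, and a threshold of 1 gave 119 higher, 92 lower and 8 family members. Normexp gave 114 higher members and 1 place, and the filter on background gave 126 higher, 141 lower and 0 places. Places numbered 1 with a gap of 50 kb and 6 with 250 kb. The median ratio of higher members in line 1 was -0.364 with normexp, 0.186 with the filter and 0.0246 in the authors' value table; in line 2 it was 0.0435 with normexp and 0.0819 in the table, and in line 3 it was 0.0639 in the table. The median ratio of lower members was -0.168, -0.12 and -0.0497 with normexp in lines 1, 2 and 3, and -0.0538, 0.0509 and -0.0089 in the table. Members past limma above 0 numbered 30 with normexp, 42 in the table, 79 with the filter and 98 to 252 when 1 line was left out; those below 0 numbered 26 in the table, 10 with lines 2 and 3 averaged and 8 to 22 when 1 line was left out. Leaving out line 2 or line 3 gave 319 or 306 higher and 287 or 233 lower members, of which 459 of 606 and 434 of 539 were members with all lines. Without line 1 there is no contrast between animals.

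In rows past 400 the higher members ranged from 12 (threshold of 1) to 73 (threshold of 0.5), with 46 without line 2, and the stretches from 2 to 4. The members of those rows inside stretches, 21 in the main setting, moved more. They numbered 7 with normexp, 12 with the filter on background, 7 with a threshold of 1 and 39 with a threshold of 0.5. Centring each chromosome changed few members (498 of 504 shared), and quantile normalization kept 481 of 505. No paired analysis was possible because the 3 lines form 1 group and there is no other group to pair them with; each ratio already sets a line against the liver of its own animal number. Each animal has 1 liver label, line 1 has 1 array, and dyes were not swapped, so a difference of the animal, of its DNA and of the array's surface cannot be told apart for any single probe. Signals near background limit 134 members to bounds.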

Other observations

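The sex chromosomes read alike in both animals. The 8723 probes of X had a median centred log2 signal of -0.78, -0.79 and -0.79 in liver DNA and -0.82, -0.87 and -0.84 in line DNA of lines 1, 2 and 3. The 122 probes of Y had -0.65, -0.72 and -0.70 in liver and -0.74, -0.82 and -0.78 in line DNA.

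The authors' value table leaves some members blank. Among higher members it held no value for 20.6% in line 1, 6.14% in line 2 and 12.3% in line 3, and among lower members for 3.45%, 12.9% and 13.4%. Over all autosomal probes the shares were 6.54%, 5.84% and 6.80%, so that blanks were more frequent on the arrays where the members read low.

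The detrending surface that the scanner software fitted to each array and channel had medians between 47.6 and 56.9 in rows 1 to 400, in either column range, and between 53.8 and 59.2 in rows past 400. Across probes of rows 1 to 400, the difference of lines 2 and 3 minus line 1 in liver and in line DNA correlated at r = 0.50, and across those of rows past 400 at r = 0.14; neighbouring spots share the array surface, and probes are not independent replicates.

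By exact match, 5 members carried sequence of a RefSeq promoter window (GRCm38.p6; 250 bases before to 50 after the start), those of Gm50595, Gm2663, Clec2i, Exosc6 and Gm46599, all in rows 1 to 400 of the array.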
